A study of Mus musculus with 9 samples.

Results

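The proteasome genes of mouse liver are described here across sham surgery, ischaemia-reperfusion and ischaemic postconditioning. They were chosen by name, as every gene whose symbol starts with Psma, Psmb, Psmc, Psmd, Psme, Psmf or Psmg followed by a digit. The rule found 48 of the 11229 genes in the gene table. Of these, 46 averaged 1 FPKM or more and were tested. FPKM counts fragments per length of transcript and per size of library. The remaining members, Psma8 and Psme2b, stayed under that level.

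RNA was sequenced from livers of C57BL/6 mice aged 8 weeks, with 3 libraries in each of 3 groups. The sham group had surgery alone. The I/R group, called IR here, had ischaemia-reperfusion, that is, blood flow to the liver was cut off and let back in. The IPO group had ischaemic postconditioning, which stops the returning flow for short spells as reperfusion begins. No genetic change or drug is named for any group. How long ischaemia lasted and when livers were taken are not in the labels. Nor do they say that replicates were separate animals, so p-values reflect only the spread among these libraries, and that spread may be technical.

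The proteasome degrades proteins that carry ubiquitin chains. Its 20S core is a barrel of alpha and beta rings with the cutting sites inside, and the 19S cap binds ubiquitin, removes it and unfolds the substrate with a ring of ATPases. Interferon exchanges the catalytic beta subunits for the immunoproteasome subunits encoded by Psmb8, Psmb9 and Psmb10 and raises the PA28 activator encoded by Psme1 and Psme2, a form of the particle known for making peptides for MHC class I. In liver, hepatocytes depend on the proteasome for turnover of damaged and short-lived proteins, and immune cells carry much of the immunoproteasome.

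A gene was called changed at a limma adjusted p under 0.05 over all genes tested. Between IR and sham, 0 of 46 members were called, where 3.86% of all genes tested were called higher and 7.64% lower. At an unadjusted p under 0.05, 1 member was higher and 10 were lower in IR, beside 29.8% of all genes in either direction. Between IPO and IR, 0 members were called higher, against 12% of all genes, and 2 were called lower, against 10.1%. The 2 were Psme1, an activator subunit, and Psmb9, an immunoproteasome subunit. At an unadjusted p under 0.05, 1 member was higher and 4 were lower in IPO than in IR, beside 36.9% of all genes. Between IPO and sham, 0 members were called in either direction, against 0.124% of genes higher and 0.104% lower, and at an unadjusted p under 0.05 the 3 members Psmf1, Psmc5 and Psme4 were lower, beside 12.3% of all genes. The members' median log2 fold change, taken on log2(FPKM + 0.5), was -0.15 in IR against sham, beside -0.05 for all genes tested. It was -0.0015 in IPO against IR, beside 0.016, and -0.18 in IPO against sham, beside -0.03. IR against sham and IPO against IR share the IR libraries, and the remaining pairs of comparisons share sham or IPO, so the comparisons are not independent of each other. The 95% interval of the log2 fold change lay within 1 in either direction for 44, 44 and 45 of the 46 members in IR against sham, IPO against IR and IPO against sham. In bulk tissue, fewer cells of a type and less RNA per cell cannot be told apart.

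**Figure D1:**
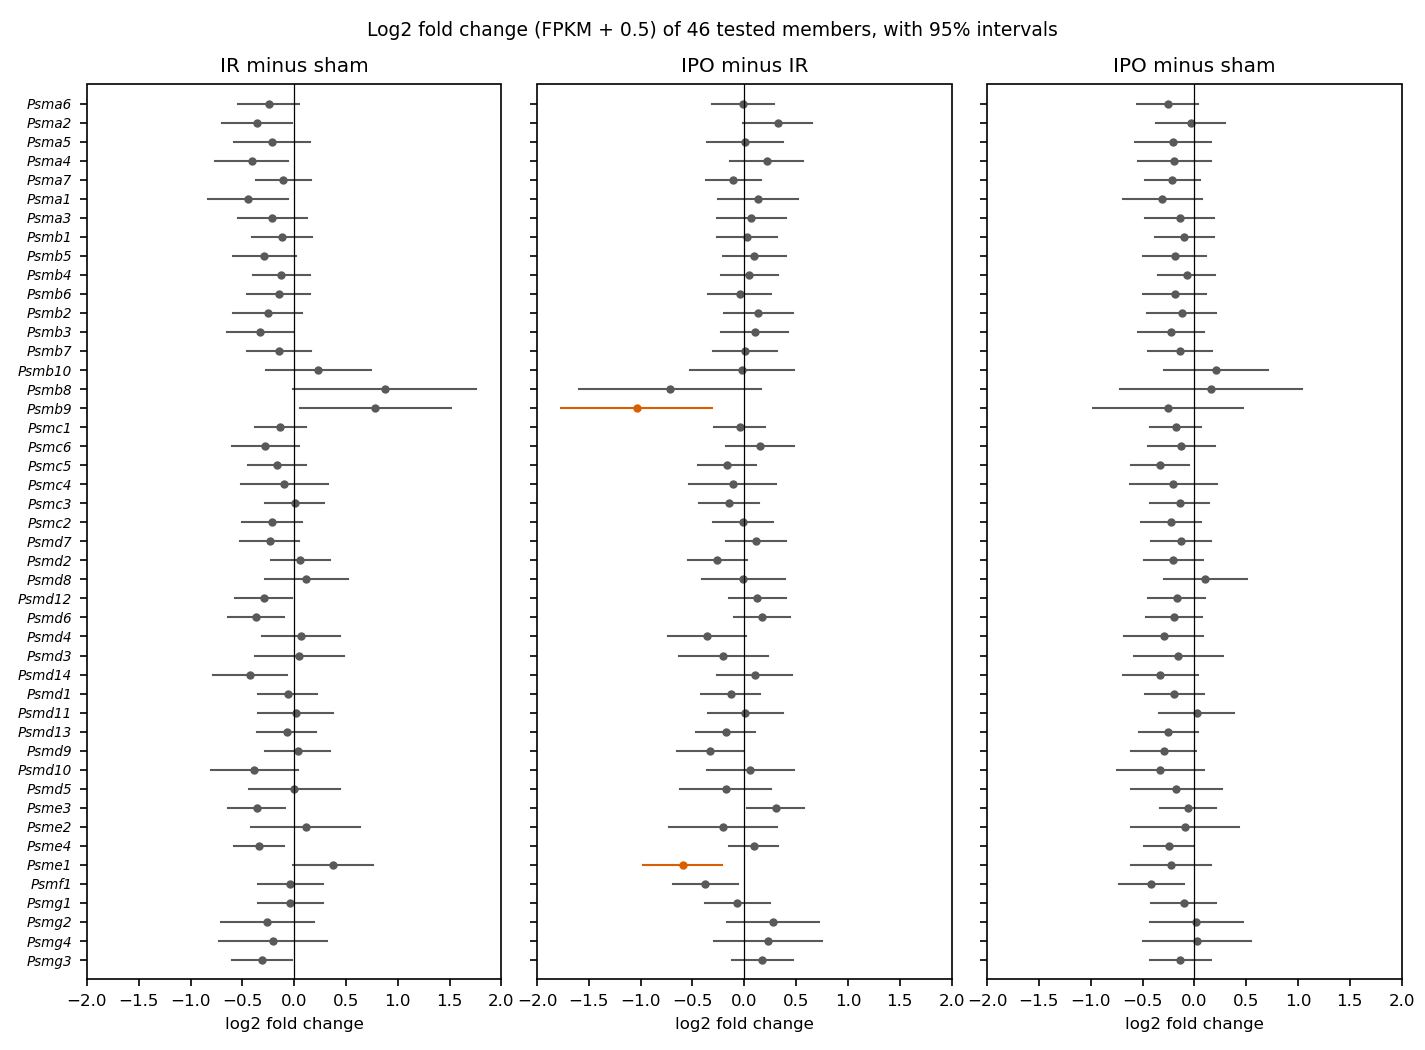
Log2 fold change of the 46 tested members with 95% intervals from limma, on log2(FPKM + 0.5), for IR minus sham, IPO minus IR and IPO minus sham; members are ordered by class and then by mean level. The members called at an adjusted p under 0.05 are in orange, Psmb9 at -1.04 and Psme1 at -0.60 in IPO minus IR, and the intervals of most other members cross 0.

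The libraries summed to between 363429 and 387000 FPKM each, and since read numbers are unknown, counting error cannot be stated. Markers of hepatocytes, 7 of 7 above 0 in every library, summed to between 16253 FPKM, in sham 2, and 28760, in IR 1. IR 3 stood apart in marker transcripts. The 8 pan-leukocyte markers summed to 79.9 FPKM in IR 3 and to 20.3 to 32.7 in the other libraries. The 8 Kupffer cell and macrophage markers summed to 374.8 in IR 3 and to 89.8 to 160.9 elsewhere. The monocyte and dendritic cell markers in the table, 6 of 7, summed to 469.5 in IR 3 and to 58.2 to 138.1 elsewhere. The T and NK cell markers in the table, 5 of 8, summed to 22.3 in IR 3 and to 0.765 to 2.46 elsewhere, and Cd3e, Cd3g and Nkg7 were listed at 0 in at least 1 library. Both B cell markers in the table, Cd79a and Cd79b, were listed at 0 in an IPO library. The markers of neutrophils ran the other way, with sums of 11.4, 41.8 and 73.6 in IR 1, IR 2 and IR 3, of 63.6 to 91.7 in sham and of 48.7 to 129.9 in IPO. IR 3 was also the highest library for markers of other cells. The 5 erythroid markers summed to 1196 FPKM in IR 3 and to 357 to 809 elsewhere, the 5 stellate cell markers to 175 and 95.9 to 143, and the 7 sinusoidal endothelial markers to 102 and 58.2 to 93.9.

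In level, constitutive subunits stood far above the immunoproteasome subunits. FPKM is a value per length, so levels may be set side by side between genes. Among alpha subunits the mean over 9 libraries ran from 27.9 FPKM for Psma3 to 87.0 for Psma6, and among the constitutive beta subunits from 35.3 for Psmb7 to 108.2 for Psmb1. The highest gene of each ring thus stood at 3.11 and 3.06 times the lowest, although the assembled ring holds each subunit in equal number. The ATPases of the 19S base ran from 19.4 for Psmc2 to 92.3 for Psmc1, a ratio of 4.75, and the other 19S subunits from 12.8 for Psmd13 to 48.6 for Psmd7. Psmb10 had a mean of 14.4 FPKM, Psmb8 of 7.13 and Psmb9 of 1.31. Assembly chaperones were lower than every tested constitutive subunit of the particle they help to build, from 3.91 for Psmd5 to 6.27 for Psmd9 in the cap and from 3.61 for Psmg3 to 11.7 for Psmg1 in the core. Activators ran from 17.9 for Psme1 to 25.3 for Psme3, and Psmf1, which encodes the PI31 regulator, had 3.87. Psma8, the alpha subunit of the testis proteasome, ran from 0.136 to 0.794 FPKM over the 9 libraries. Psme2b, a near copy of Psme2, ran from 0.191 to 1.59, and reads may be shared between Psme2 and its copy, so both are uncertain.

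**Figure D2:**
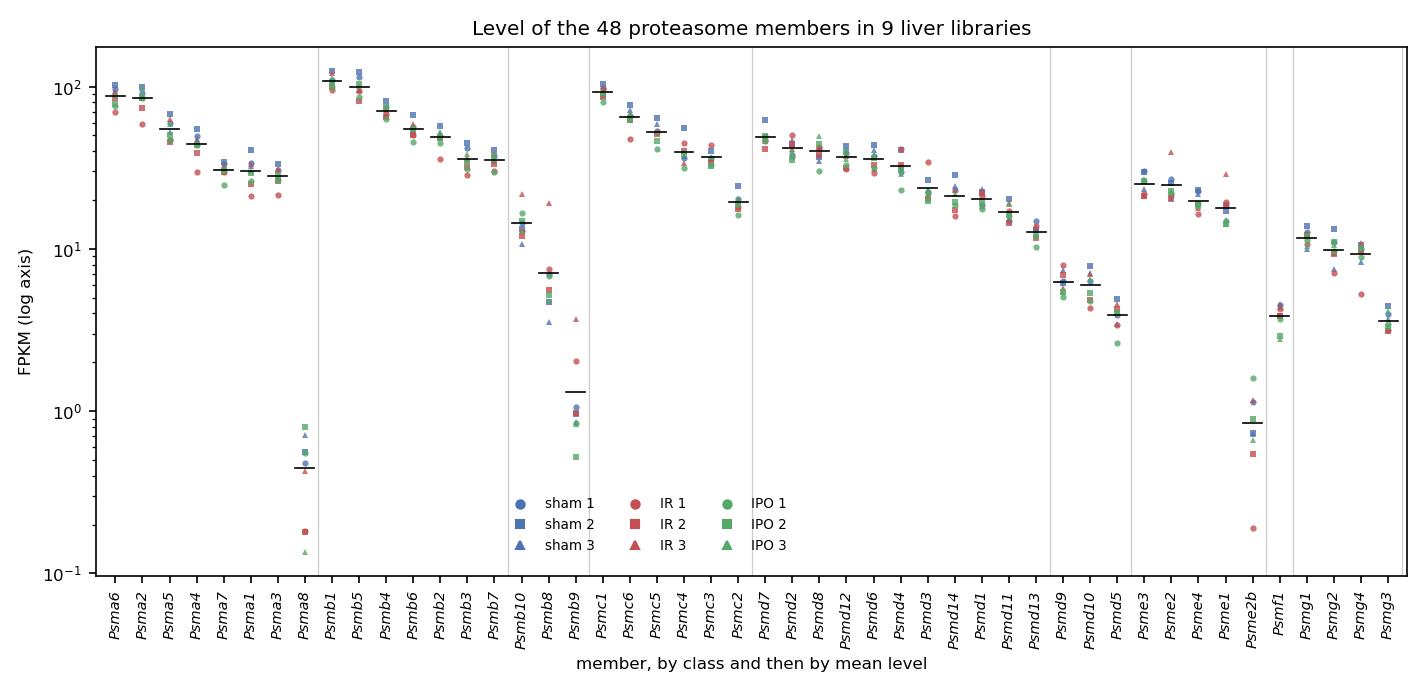
FPKM (log axis) of the 48 members in each of the 9 libraries, by class (grey lines part the classes, in the order 20S alpha, constitutive beta, immunoproteasome, 19S ATPase, 19S non-ATPase, 19S chaperones, activators, PI31 and 20S chaperones) and then by mean level, which is the black bar. Constitutive 20S and 19S genes lie between 12.8 and 108.2 on average except Psma8, and Psmb8, Psmb9, Psmb10, Psme1 and Psme2 have their highest point in IR 3.

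The 14 tested genes of the constitutive 20S core had small differences of 1 sign. All 14 log2 fold changes were below 0 in IR against sham, from -0.44 to -0.10 with a median of -0.23, and none was called. All 14 were also below 0 in IPO against sham, from -0.31 to -0.04 with a median of -0.19. Between IPO and IR 11 were above 0, with a median of 0.06, and without IR 3 the median was 0.15 with 1 of the 14 below 0. Over all genes tested, 54.2% were below 0 in IR against sham, 54.8% in IPO against sham and 48.4% in IPO against IR. With median-of-ratios scaling and with quantile normalization, all 14 stayed below 0 in IR against sham, and 13 and 14 did so in IPO against sham. These genes share their libraries, and sham 2 was the highest of the 9 libraries for all 14, while IR 1 was the lowest for 8. Over all genes tested, sham 2 was the highest for 17.4% and IR 1 the lowest for 30.7%. The hepatocyte markers had their lowest sum in sham 2 and their highest in IR 1, and their part in these differences was not tested.

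Psma1, an alpha ring subunit, had 33.8, 40.8 and 32.4 FPKM in sham 1 to 3, 21.1, 25.2 and 33.1 in IR and 26.2, 29.5 and 30.1 in IPO. IR 3 reached into the sham range, and the 3 IPO libraries lay below all sham libraries. Its log2 fold change was -0.44 ± 0.17 (SE) in IR against sham, with an adjusted p of 0.121. Psma4, of the same ring, had 49.3, 54.5 and 47.4 in sham, 29.8, 38.8 and 46.5 in IR and 43.9, 43.6 and 44.3 in IPO. All IR and all IPO libraries were below all sham libraries. The adjusted p was 0.115 in IR against sham, for -0.41 ± 0.16. Psma2 had 91.4, 99.4 and 85.2 in sham, 58.5, 73.3 and 85.2 in IR and 84.6, 86.8 and 97.8 in IPO, with IR 1 and IR 2 the lowest libraries. Psmb5, which carries the chymotrypsin-like site, had 115, 122 and 95.1 in sham, 93.8, 82.0 and 95.3 in IR and 85.8, 103 and 101 in IPO, and the groups overlapped. Without IR 3 the median of the 14 genes in IR against sham was -0.34, and Psma1 (-0.61, adjusted p = 0.0354) and Psma4 (-0.56, adjusted p = 0.0395) were called lower. In that fit 3 of the 46 members were called lower, beside 821 of 9649 genes tested. IR 3 also carried the high immune markers, and their part in these calls was not tested.

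**Figure D3:**
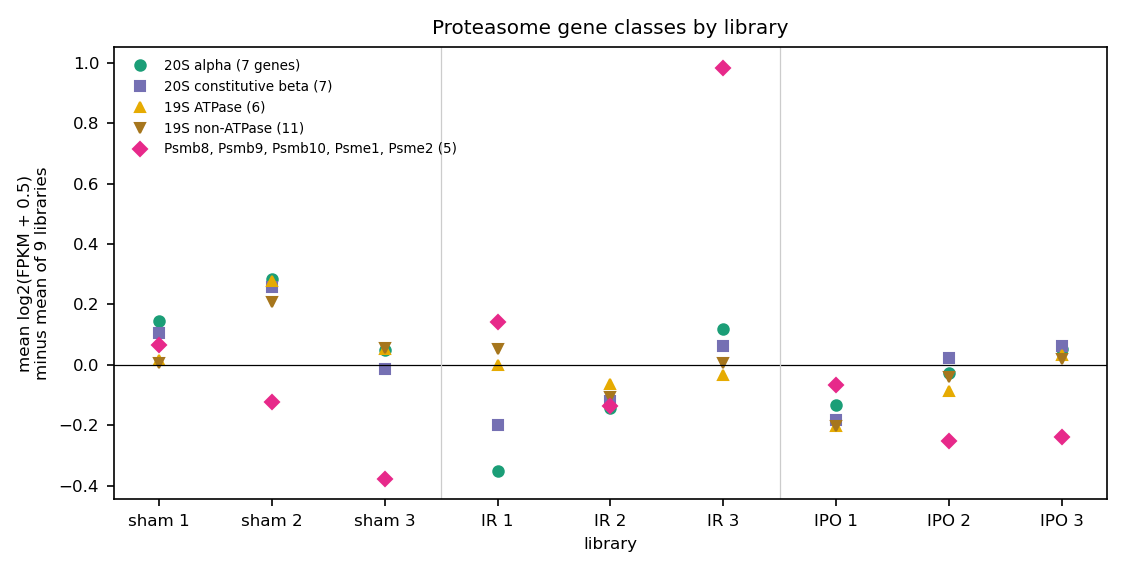
Mean over the genes of a class of log2(FPKM + 0.5) minus each gene's mean over the 9 libraries, by library; each point is 1 class in 1 library, and no error is drawn. The 4 constitutive classes lie highest in sham 2, at 0.21 to 0.28, while the 5 interferon-inducible genes stand at 0.98 in IR 3 and between -0.38 and 0.14 in the other libraries.

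Over the 31 tested genes of the core and cap together, sham 2 was the highest library for 24, or 77.4%, beside 17.4% of all genes tested. With median-of-ratios scaling it was the highest for 19, or 61.3%, beside 10.5% of all genes. IR 1 and IPO 1 were each the lowest library for 12 of the 31, or 38.7%, beside 30.7% and 13.1% of all genes tested. With median-of-ratios scaling IR 1 was the lowest for 9, or 29%, beside 22% of all genes. IPO 1 was then the lowest for 12, beside 12.2% of all genes. The summed level of the core and cap genes was 1519, 1717 and 1474 FPKM in sham 1 to 3, 1325, 1331 and 1481 in IR and 1281, 1418 and 1493 in IPO. The spread within each group was thus of the same order as the distance between groups, and all groups overlapped. Without sham 2 the median of all 46 members was -0.10 in IR against sham and -0.11 in IPO against sham.

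The 17 genes of the 19S cap showed no common direction between IR and sham. Of their log2 fold changes 11 were below 0, with a median of -0.09 and a range from -0.43 to 0.11. In IPO against sham 15 of 17 were below 0, with a median of -0.19, and this count was 15 with each of the other scalings too. These counts are 64.7% and 88.2% of the cap genes, beside 54.2% and 54.8% of all genes tested. Psmd14, the deubiquitinase of the cap, had 22.98, 28.4 and 24.2 FPKM in sham, 15.9, 17.3 and 23.2 in IR and 18.6, 19.4 and 21.9 in IPO. IR 3 again reached into the sham range, while all IPO libraries were below sham. The log2 fold change in IR against sham was -0.43 ± 0.16, with an adjusted p of 0.110, and without IR 3 it was -0.59 with an adjusted p of 0.0340. Psmd6, a subunit of the lid, had 37.1, 43.5 and 40.7 in sham, 29.5, 33.0 and 31.2 in IR and 31.4, 36.5 and 37.9 in IPO. All IR libraries were below all sham libraries, and the difference of -0.37 ± 0.12 had an adjusted p of 0.0779.

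Psmd4, a ubiquitin receptor of the cap, had 29.7, 40.8 and 31.3 FPKM in sham, 41.2, 32.6 and 32.4 in IR and 23.1, 30.6 and 28.7 in IPO. Psmd2, which docks ubiquitin-binding shuttles, had 38.1, 44.5 and 46.8 in sham, 49.96, 44.1 and 41.0 in IR and 37.0, 35.2 and 39.9 in IPO. For both, all IPO libraries were below all IR libraries, and neither was called, with adjusted p of 0.152 for -0.36 and of 0.166 for -0.26. IR 1 was the highest of the 9 libraries for 4 of 17 cap genes, or 23.5%, beside 15.5% of all genes tested. Psmd4 and Psmd2 were among the 4. Psmd3, which also had its maximum there, had 34.5 in IR 1 and 19.7 to 26.5 in the other libraries. Among the ATPases, Psmc5 had 53.2, 64.1 and 59.1 in sham, 52.8, 51.0 and 52.7 in IR and 41.3, 45.96 and 52.7 in IPO, with every IR and IPO library below every sham library. Its difference of -0.33 ± 0.13 in IPO against sham had an adjusted p of 0.319.

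In IR against sham, the groups did not overlap for 10 members that were lower, or 21.7% of those tested, and 1 that was higher, or 2.17%. The same shares over all genes tested were 19.3% and 13.2%. In IPO against IR they were 6 lower, or 13%, and 3 higher, or 6.52%, beside 20.4% and 22.2%. In IPO against sham they were 13 lower, or 28.3%, and 0 higher, beside 13.2% and 9.59% of all genes.

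Some activators and chaperones outside the interferon-inducible group had groups that did not overlap, and none of them was called. Psme4, the PA200 activator known for a part in chromatin and DNA repair, had 22.6, 23.2 and 21.8 FPKM in sham, 16.4, 18.999 and 17.8 in IR and 18.8, 18.4 and 19.4 in IPO. All libraries of IR and IPO were below sham, and the difference of -0.34 ± 0.11 in IR had the smallest adjusted p among members in that comparison, 0.0684. Psme3, a nuclear activator, had 30.4, 29.6 and 23.5 in sham, 21.8, 21.3 and 21.1 in IR and 26.3, 26.1 and 27.1 in IPO. IR was below sham and below IPO in every library, with -0.36 ± 0.12 and an adjusted p of 0.0825 against sham. Without sham 3 this became -0.48 with an adjusted p of 0.0249. Its difference between IPO and IR was 0.30 ± 0.12, with an adjusted p of 0.104.

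Psmf1, whose product PI31 binds the core, had 4.50, 3.84 and 4.57 FPKM in sham, 4.27, 3.88 and 4.37 in IR and 3.68, 2.90 and 2.77 in IPO. The 3 IPO libraries were the lowest of the 9, with an adjusted p of 0.0808 for -0.38 ± 0.14 against IR and of 0.269 for -0.41 against sham. Psmg3, a chaperone of core assembly, had 3.96, 4.45 and 3.70 in sham, 3.16, 3.14 and 3.15 in IR and 3.47, 3.28 and 4.16 in IPO, so that IR was the lowest group without overlap. Its adjusted p was 0.147 in IR against sham, for -0.31 ± 0.13. Of the cap chaperones, Psmd9 had 6.36, 6.20 and 7.39 in sham, 7.92, 6.88 and 5.76 in IR and 5.02, 5.46 and 5.44 in IPO, and IPO was below both other groups in every library. The difference of -0.33 ± 0.14 between IPO and IR had an adjusted p of 0.118.

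The interferon-inducible members were the ones in which calls were made. All 5, Psmb8, Psmb9, Psmb10, Psme1 and Psme2, were highest in IR 3, the library with the high immune markers. IR 3 was the highest library for 19.1% of all genes tested. With all libraries, each of the 5 had a log2 fold change above 0 in IR against sham and below 0 in IPO against IR, under each of the 3 scalings. Without IR 3, 2 of the 5 were below 0 in IR against sham and 3 of the 5 in IPO against IR. Promoters are shown for Psme1 and Psmb9, the members called, for Psmb8, which lies beside Psmb9, and for Psmb5 and Psmb6, the constitutive subunits that Psmb8 and Psmb9 replace. The sequences are RefSeq windows on GRCm38.p6, from 250 bases before to 50 after the annotated start, printed 5′ to 3′ on the gene's strand. Capitals mark a match to a motif searched on both strands, and a match is a description, not a bound site.
Psme1: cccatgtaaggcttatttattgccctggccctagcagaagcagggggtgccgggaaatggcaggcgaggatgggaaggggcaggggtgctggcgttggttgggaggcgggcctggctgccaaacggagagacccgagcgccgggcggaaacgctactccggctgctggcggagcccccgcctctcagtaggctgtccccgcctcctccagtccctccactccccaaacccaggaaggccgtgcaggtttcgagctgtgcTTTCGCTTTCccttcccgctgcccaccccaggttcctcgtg
Psmb9: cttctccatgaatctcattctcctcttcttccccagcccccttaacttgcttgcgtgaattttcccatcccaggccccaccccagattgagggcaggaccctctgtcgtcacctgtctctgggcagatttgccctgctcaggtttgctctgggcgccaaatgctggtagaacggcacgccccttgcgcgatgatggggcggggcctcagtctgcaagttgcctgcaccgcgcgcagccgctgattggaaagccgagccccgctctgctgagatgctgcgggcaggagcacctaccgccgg
Psmb8: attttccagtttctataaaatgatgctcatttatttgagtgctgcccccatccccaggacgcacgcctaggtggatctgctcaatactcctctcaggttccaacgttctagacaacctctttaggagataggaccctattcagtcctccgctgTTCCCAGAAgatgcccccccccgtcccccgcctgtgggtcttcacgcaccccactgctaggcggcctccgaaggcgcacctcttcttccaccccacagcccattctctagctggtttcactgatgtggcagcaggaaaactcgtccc
Psmb5: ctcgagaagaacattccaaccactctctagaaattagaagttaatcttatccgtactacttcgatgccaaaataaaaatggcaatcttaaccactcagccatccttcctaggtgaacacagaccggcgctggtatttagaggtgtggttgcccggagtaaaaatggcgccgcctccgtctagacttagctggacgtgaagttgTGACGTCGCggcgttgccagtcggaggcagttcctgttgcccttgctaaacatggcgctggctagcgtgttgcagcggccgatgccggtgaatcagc
Psmb6: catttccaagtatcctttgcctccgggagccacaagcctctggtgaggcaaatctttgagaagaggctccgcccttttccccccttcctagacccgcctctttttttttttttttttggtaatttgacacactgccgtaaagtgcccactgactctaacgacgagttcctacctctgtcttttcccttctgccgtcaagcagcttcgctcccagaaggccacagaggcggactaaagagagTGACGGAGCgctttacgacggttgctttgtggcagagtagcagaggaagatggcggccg
The Psme1 window is chr14:55578244-55578543 on the plus strand. It holds a match to the core of the interferon-stimulated response element, searched as GAAA, any 2 bases and GAAA, on the other strand and starting 10 bases after the start. The Psmb9 window is chr17:34187281-34187580 on the minus strand and holds no match to the motifs searched. The Psmb8 window is chr17:34197945-34198244 on the plus strand, with a match to TTCNNNGAA, the core of the gamma-activated site, at -97. The windows of Psme1, Psmb9 and Psmb8 lie wholly inside the spans given for these genes below. They do not reach the bases before those spans, so a match or its absence holds for the window only. The Psmb5 window is chr14:54617946-54618245 on the minus strand, and the Psmb6 window chr11:70525107-70525406 on the plus strand. Each holds TGACNNNGC, the core of the antioxidant response element, at -47 and at -9. RefSeq windows were matched for 40 member genes, 43 windows in all. The core of the interferon-stimulated response element was found in 5 of the 40, namely Psme1 and 4 that are not among the inducible members (Psmb3, Psmd4, Psmd9 and Psmg4), and in 3.44% of 32851 windows of the same length over all genes. TTCNNNGAA was found in 3 of the 40, Psmb8, Psmd2 and Psmg1, and in 8.3% of windows, and TGACNNNGC in 6 of the 40 and 12.39%. Counted by window, as over all genes, the members had 5, 3 and 6 of 43.

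Psme1 (chr14:55578123-55581529, plus strand) had 18.7, 17.2 and 14.99 FPKM in sham, 19.5, 18.7 and 29.1 in IR and 14.8, 14.1 and 14.3 in IPO. All IPO libraries were below all IR and all sham libraries, and IR 3 stood above the rest. Psme1 fell in IPO against IR by 0.60 on the log2 scale, with an SE of 0.17 and an adjusted p of 0.0359. Its values in IR against sham were 0.37 ± 0.17 with an adjusted p of 0.180. Without IR 3 the difference between IPO and IR was -0.40 with an adjusted p of 0.0611, and the groups still did not overlap. The call also ended without sham 2, IPO 1, IPO 2 or IPO 3, with the replicate number as a block and with the 2 groups alone, and over all alternatives the adjusted p ran from 0.0170 to 0.0978.

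Psmb9 (chr17:34181988-34187764, minus strand), which replaces the subunit encoded by Psmb6, had 1.07, 0.957 and 0.857 FPKM in sham, 2.04, 0.973 and 3.71 in IR and 0.841, 0.521 and 0.832 in IPO. IR 1 and IR 3 stood above the rest, and IR 2 lay within the sham range and above IPO. Psmb9 fell in IPO against IR by 1.04 on the log2 scale, with an SE of 0.32 and an adjusted p of 0.0471. At this level the fold change depends on the pseudocount. It was -1.34 with a pseudocount of 0.1, and the call ended with a pseudocount of 1. The call also ended in 8 of 9 fits with 1 library left out, all but the fit without IR 2. Their adjusted p ran up to 0.139, and without IR 3 the difference was -0.66 with an adjusted p of 0.0859. Without a sham library the difference stayed at -1.04, and only its adjusted p rose, to between 0.0582 and 0.0668. In IR against sham the difference was 0.78 ± 0.32 with an adjusted p of 0.142, without IR 3 it was 0.41, and without IR 2 it was 1.17 with an adjusted p of 0.0305.

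Psmb8 (chr17:34197721-34201454, plus strand) had 6.98, 4.68 and 3.55 FPKM in sham, 7.55, 5.61 and 19.04 in IR and 6.78, 5.20 and 4.74 in IPO. IR 3 alone lay clearly outside the range of the other libraries. Its log2 fold change in IR against sham was 0.87 ± 0.39, with an adjusted p of 0.170, and 0.38 without IR 3. In IPO against IR it was -0.71, and -0.22 without IR 3. Psmb10, which replaces the subunit encoded by Psmb7, had 14.3, 13.2 and 10.7 in sham, 12.8, 11.9 and 21.9 in IR and 16.7, 14.8 and 12.9 in IPO. Psme2, the partner of Psme1 in the activator ring, had 26.9, 25.3 and 20.3 in sham, 21.3, 20.5 and 39.8 in IR and 22.0, 22.7 and 22.6 in IPO. For both genes all groups overlapped, and without IR 3 the differences turned sign, to -0.03 and -0.19 in IR against sham, and from -0.02 to 0.24 and from -0.20 to 0.10 in IPO against IR. Over the 5 genes, the median difference between IR and sham was 0.37 with all libraries and 0.17 without IR 3, and between IPO and IR it was -0.60 and -0.22. The part of the immune cell markers of IR 3 in these levels was not tested.

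**Figure D4:**
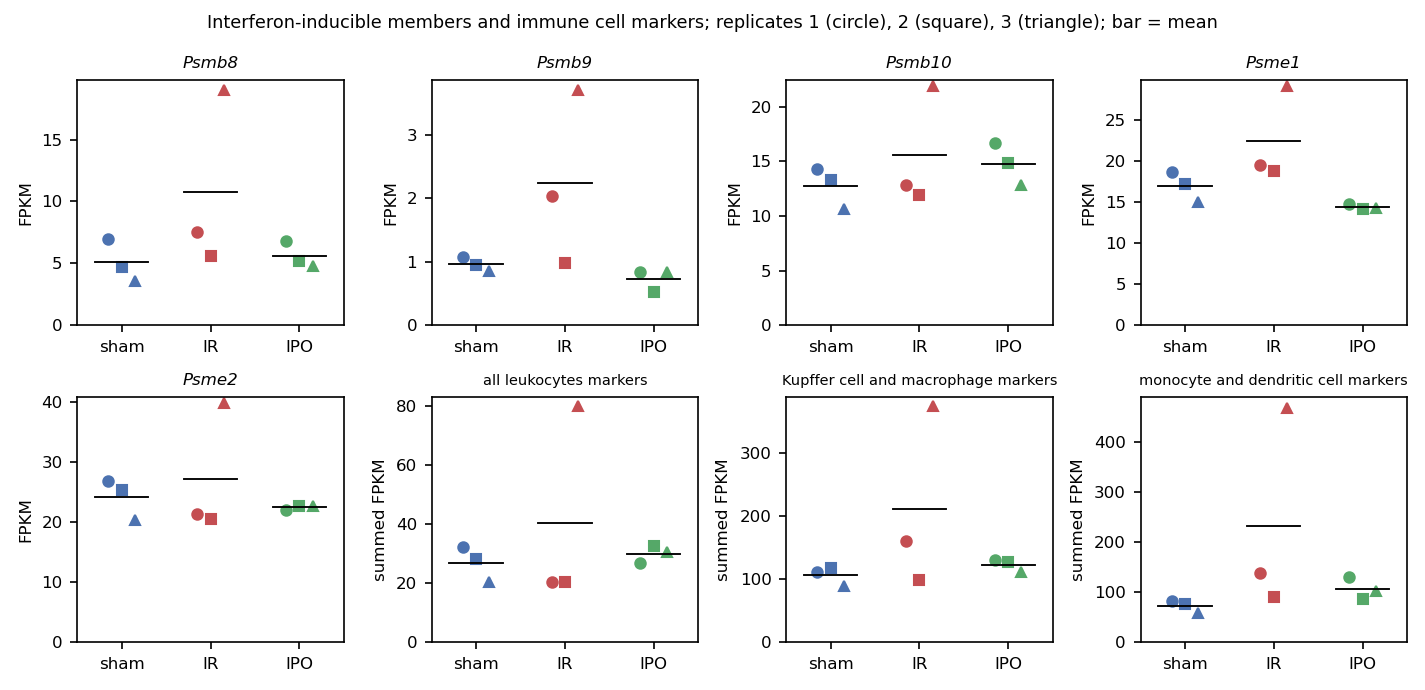
FPKM of the 5 interferon-inducible members and summed FPKM of 3 immune marker lists in each library; points are replicates, bars are group means, and all axes start at 0. IR 3 is the highest library in every panel, while Psme1 in IPO lies between 14.1 and 14.8, below every other library.

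The share of each immunoproteasome subunit in its pair with the constitutive subunit it replaces gives a measure that library scaling does not move. Psmb8 made up 5.71%, 3.69% and 3.60% of its pair with Psmb5 in sham, 7.45%, 6.40% and 16.7% in IR and 7.32%, 4.78% and 4.47% in IPO. The share was above all sham libraries in all IR libraries. Psmb9 made up 1.85%, 1.41% and 1.58% of its pair with Psmb6 in sham, 3.93%, 1.89% and 5.93% in IR and 1.83%, 0.947% and 1.49% in IPO, with IR again above sham throughout. The log2 ratio, with the pseudocount of 0.5, was 1.16 higher in IR than in sham for Psmb8 to Psmb5 and 0.93 higher for Psmb9 to Psmb6. Each had a two-sided exact permutation p of 0.1, the smallest that 3 against 3 libraries allow, and 0.3 after adjustment over the 9 ratios compared. In IPO against IR these ratios differed by -0.81 and -0.99, each with an exact p of 0.2. By share, Psmb9 was higher in every IR library than in every IPO library. The pseudocount of 0.5 is large beside the level of Psmb9, so its log2 ratio depends on it. With a pseudocount the ratios are also not free of library scaling, as the shares are. Psmb10 made up 27.7%, 24.5% and 23.4% of its pair with Psmb7 in sham, 29.8%, 26.3% and 36.2% in IR and 35.9%, 28.5% and 26.5% in IPO. Its log2 ratio was 0.38 higher in IR than in sham and 0.35 higher in IPO than in sham, each with an exact p of 0.2. In IPO against sham the ratios of Psmb8 and Psmb9 differed by 0.35 and -0.06, with exact p of 0.3 and 0.9. Without IR 3 the ratio of Psmb8 was 0.71 higher in IR than in sham and differed by -0.36 in IPO against IR, that of Psmb9 by 0.63 and -0.70, and that of Psmb10 by 0.21 and 0.14.

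The 48 members lie on 16 chromosomes, and the inducible ones lie in groups. Psmb9, Tap1, Psmb8 and Tap2 are the 4 genes of the table in 34.3 kb of chromosome 17 (chr17:34181988-34216321), inside the MHC. The RefSeq windows of Psmb9 and Tap1, which start in opposite directions, share 275 bases. Psme1 and Psme2 lie with Emc9, Rnf31 and Irf9 in 31.9 kb of chromosome 14 (chr14:55578123-55610030). Irf9, a subunit of the interferon-activated factor that binds the interferon-stimulated response element, had 7.43, 7.72 and 8.36 FPKM in sham, 3.19, 2.94 and 6.55 in IR and 7.93, 6.34 and 7.80 in IPO. It fell in IR against sham by 0.90 on the log2 scale, with an adjusted p of 0.0463. That call held without IR 3 and ended without any of the other 8 libraries (up to 0.125). Psme1, in the same region, had its highest level in IR. Psmb9 overlaps Tap1 and Psme1 overlaps Emc9 on the other strand. The libraries were stranded, but whether strand was used in counting is not stated, so overlapping reads cannot be told apart. Over all members, 14 overlap a gene on the other strand and 4 a gene on their own strand.

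Among 22 genes of class I antigen presentation and interferon signalling, 2 were called higher and 2 lower in IR than in sham, with a median of 0.03. Over all genes tested, 3.86% were called higher and 7.64% lower. Tap2, a subunit of the peptide transporter, had 4.00, 3.13 and 2.96 FPKM in sham, 7.42, 4.21 and 6.45 in IR and 3.78, 3.56 and 3.28 in IPO. All IR libraries were above the rest, and Tap2 rose by 0.73 (adjusted p = 0.0438) in IR and fell by 0.66 (adjusted p = 0.0412) in IPO against IR. H2-T23, a non-classical class I molecule, had 42.0, 37.8 and 50.2 in sham, 59.6, 58.6 and 77.6 in IR and 43.1, 46.9 and 45.0 in IPO. It rose by 0.58 (adjusted p = 0.0381) and fell by 0.52 (adjusted p = 0.0354). Class I genes resemble each other, and how shared reads were counted is not stated, so its level is uncertain. Tapbp, which loads peptides on class I, had 22.5, 21.4 and 18.8 in sham, 25.8, 24.9 and 40.1 in IR and 21.1, 19.05 and 15.2 in IPO, and it fell in IPO against IR by 0.68 (adjusted p = 0.0378).

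Stat2, a transcription factor of the interferon response, had 20.8, 21.7 and 15.9 FPKM in sham, 7.42, 8.37 and 10.96 in IR and 15.9, 13.1 and 13.6 in IPO. It fell by 1.09 in IR (adjusted p = 0.00693) and rose by 0.65 in IPO against IR (adjusted p = 0.0271), with IR below the other groups in every library. Irf9 rose in IPO against IR by 0.81 (adjusted p = 0.0439), as did Jak1, a receptor kinase, by 0.49 (adjusted p = 0.0231). In IPO against IR 3 genes of the list were thus called higher and 3 lower, with a median of -0.07. Over all genes tested, 12% were called higher and 10.1% lower. None of the 22 was called in IPO against sham by limma, and 2 had an unadjusted p under 0.05, beside 12.3% of all genes. Leaving out single libraries ended most of these calls. The call of Stat2 in IR against sham held in all 9 such fits (adjusted p up to 0.0373). That of Stat2 in IPO against IR ended without IR 1, IR 2 or any IPO library (up to 0.0945). The calls of Irf9 in both comparisons held without IR 3 but ended without any of the other 8 libraries (up to 0.125 and 0.128). The calls of Tap2 ended without 8 libraries in IR against sham, all but IR 2, and without sham 2, IR 1, IR 3 or any IPO library in IPO against IR (up to 0.135 and 0.122). For H2-T23 they ended without all but sham 3 in IR against sham, and without sham 1, IR 3 or any IPO library in IPO against IR (up to 0.132 and 0.104). That of Tapbp ended without sham 1, sham 2, IR 3 or any IPO library (up to 0.131), and that of Jak1 without IR 2 or any IPO library (up to 0.0850).

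Of 13 genes of ubiquitin, its loading enzymes and the p97 segregase, 1 was called higher in IR than in sham and none lower. The shares over all genes tested were 3.86% and 7.64%. The gene called was Ubb, a polyubiquitin gene, which had 198, 205 and 197 FPKM in sham, 322, 285 and 318 in IR and 209, 273 and 243 in IPO. All IR libraries were above all others. Ubb rose by 0.62 on the log2 scale in IR (SE 0.12, adjusted p = 0.0159), and its difference of -0.36 in IPO against IR had an adjusted p of 0.0648. Genes that encode ubiquitin share coding sequence, so reads may be split between them.

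Rps27a, which encodes ubiquitin fused to a ribosomal protein, rose in IPO against IR by 0.42 (adjusted p = 0.0468), from 75.7, 78.8 and 91.9 FPKM in IR to 107, 107 and 115 in IPO, beside 115, 105 and 88.8 in sham. Ube2r2, a conjugating enzyme that serves cullin ligases, had 18.4, 20.8 and 20.3 in sham, 24.1, 24.9 and 26.5 in IR and 15.5, 18.3 and 16.0 in IPO. It fell by 0.59 in IPO against IR (adjusted p = 0.00828), with IR above the other groups in every library. The list thus held 1 gene called higher and 1 lower in IPO against IR, beside 12% and 10.1% of all genes tested. The median of the 13 genes was -0.03 in IR against sham and -0.06 in IPO against IR. None was called in IPO against sham, at either an adjusted or an unadjusted p under 0.05. The call of Ube2r2 in IPO against IR held in all alternatives, with an adjusted p up to 0.0379. That of Ubb in IR against sham ended without sham 1 or sham 2 (up to 0.0657). That of Rps27a ended without sham 1, sham 2, IR 1, IR 2 or any IPO library (up to 0.142).

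**Figure D5:**
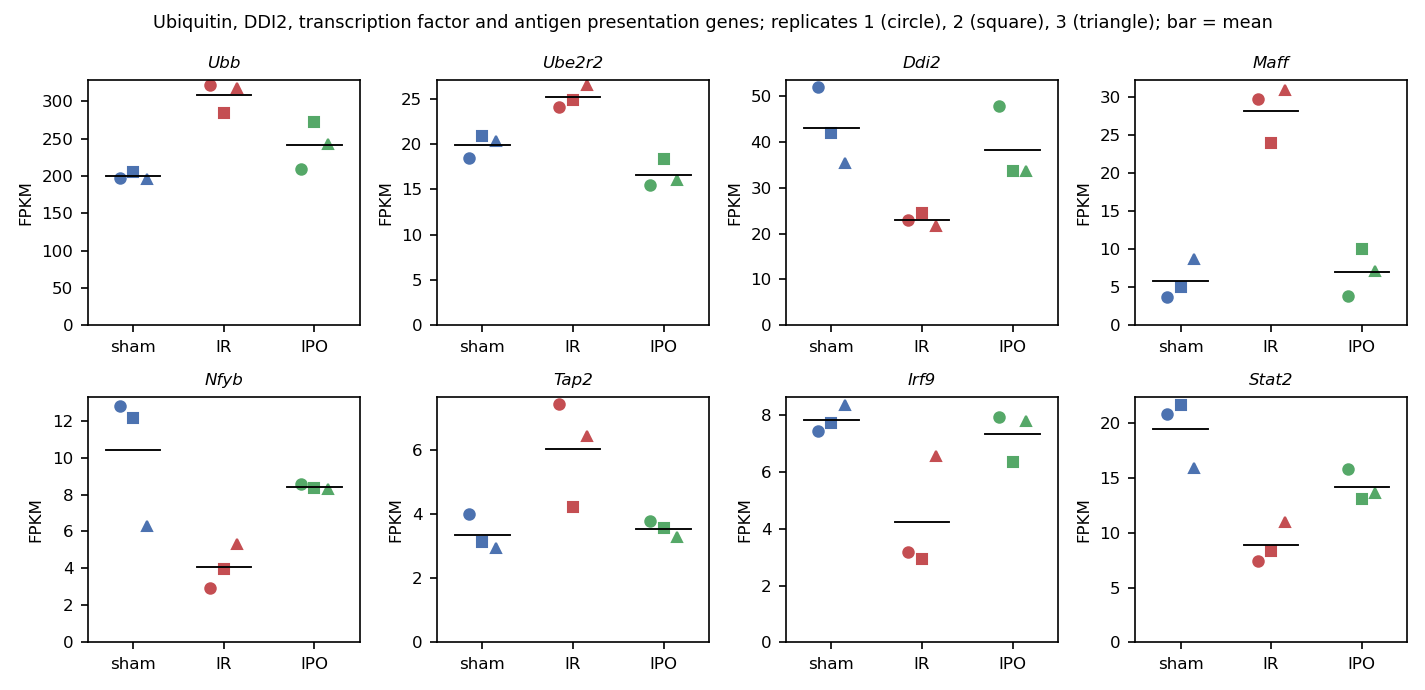
FPKM of 8 genes of the ubiquitin, transcription factor and antigen presentation lists in each library; points are replicates, bars are group means, and all axes start at 0. Ubb, Ube2r2, Maff and Tap2 have their 3 IR libraries above all sham libraries, and Ddi2, Nfyb and Stat2 have their 3 IR libraries below all others.

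Among 20 partners of the proteasome that carry other names, 1 was called lower in IR than in sham and none higher, with a median of -0.10. The shares over all genes tested were 7.64% lower and 3.86% higher. The gene called was Ddi2, a shuttle with protease activity known to cut the transcription factor NRF1 so that it can drive proteasome genes. Ddi2 had 52.1, 42.0 and 35.4 FPKM in sham, 22.98, 24.5 and 21.6 in IR and 47.8, 33.7 and 33.6 in IPO. All IR libraries were below all others. Ddi2 fell by 0.87 in IR (SE 0.18, adjusted p = 0.0178) and rose by 0.71 in IPO against IR (adjusted p = 0.0226). The calls ended without sham 1 or sham 2 in IR against sham (up to 0.0732) and without IPO 1 in IPO against IR (0.0758). Ubqln4, a ubiquitin shuttle, had 9.60, 11.3 and 9.53 in sham, 9.60, 11.5 and 11.01 in IR and 7.01, 7.49 and 7.40 in IPO, the lowest 3 libraries. It fell by 0.52 in IPO against IR (adjusted p = 0.0174), a call that ended without IR 2, IPO 1 or IPO 3 (up to 0.0619). In IPO against IR the list held 1 gene called higher and 1 lower, beside 12% and 10.1% of all genes tested. In IPO against sham it held none by limma, with 2 at an unadjusted p under 0.05, beside 12.3% of all genes.

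Of 8 transcription factor genes linked to proteasome promoters, Nfe2l1, which encodes NRF1, had 7.29, 6.53 and 7.003 FPKM in sham, 8.43, 7.18 and 7.13 in IR and 6.40, 6.06 and 5.67 in IPO. It was not called, with 0.12 in IR against sham and -0.30 in IPO against IR (adjusted p of 0.536 and 0.0972). Maff, a small MAF protein that pairs with NRF1 and NRF2, had 3.66, 4.95 and 8.65 in sham, 29.7, 23.9 and 30.8 in IR and 3.796, 9.99 and 7.07 in IPO. Maff rose by 2.27 in IR (SE 0.35, adjusted p = 0.00598) and fell by 2.03 in IPO against IR (adjusted p = 0.00486). Nfyb, a subunit of the CCAAT-binding factor NF-Y, had 12.8, 12.2 and 6.28 in sham, 2.94, 3.97 and 5.34 in IR and 8.56, 8.36 and 8.29 in IPO. It fell by 1.22 in IR (adjusted p = 0.0223) and rose by 0.99 in IPO against IR (adjusted p = 0.0282). Mafg, another small MAF gene, fell in IPO against IR by 0.52 (adjusted p = 0.0451), from 13.8, 16.7 and 19.9 in IR to 9.87, 13.4 and 11.4 in IPO, beside 13.0, 12.7 and 13.5 in sham.

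In IR against sham 1 of the 8 was thus called higher and 1 lower, and in IPO against IR 1 higher and 2 lower. Over all genes tested, 3.86% were called higher and 7.64% lower in IR against sham, and 12% and 10.1% in IPO against IR. In IPO against sham none of the 8 was called by limma at an adjusted or unadjusted p under 0.05. The medians of the 8 genes were 0.10, -0.15 and -0.06. The call of Maff held in all 9 fits without 1 library in both comparisons (adjusted p up to 0.0311 and 0.0195). The call of Nfyb ended without sham 1, sham 2, IR 1 or IR 2 in IR against sham (up to 0.0879), and without IR 1, IR 2 or any IPO library in IPO against IR (up to 0.0816). That of Mafg ended in 7 fits, all but those without IR 1 and without IPO 2 (up to 0.147).

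A number in the description label is the same in all IPO libraries and occurs in no other group, so it and the group cannot be told apart in comparisons with IPO. The IR libraries share a number with sham 2 and not with sham 1 or sham 3. With that number as a term, the fit set IR against sham 2 alone, the only sham library with the number of IR. The members' median was then -0.31, the distance to sham 2, which was the highest library for most core and cap genes. Whether calls in IR against sham hold apart from the number cannot be told from 1 sham library. What the number stands for is not stated. The authors' deposited tables of differing genes list 0 of the 48 members in any comparison, where the smallest fold listed in those tables was 1.5. Psme1 and Psmb9, called lower in IPO against IR here, are thus absent from them. Their log2 fold changes here were -0.596 and -1.04, and that of Psme1 was -0.580 with a pseudocount of 1. The smallest decrease listed for that comparison was 0.586 on the log2 scale. Why Psme1 and Psmb9 are absent was not tested.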

How the data were processed

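Liver RNA was sequenced from 9 libraries, 3 each from sham, IR and IPO mice, with a stranded kit per the labels' protocols. The deposited gene table holds FPKM per library, computed by the authors. The build is mm10, per the submitters' processing notes. Aligner, annotation and counting program were not given in the sources used here. Each of the authors' deposited tables of differing genes gives log2 fold changes and fold ratios for listed genes only, with p-values and q-values from an unnamed test. Of these, the listing and the fold were used.

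FPKM are not counts, so a step for 1 read was sought in each library as the best of many steps tried. With it, 26.0% to 36.5% of 200 low values per library lay within 0.1 of a whole number of reads. At 1 fixed step 20% would do so by chance, and no such value was worked out for the best of many. Depth is therefore unknown. The gene values held 1 empty line, and 9 symbols had more than 1 identifier.

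Values were taken as log2(FPKM + 0.5), and the 9649 genes averaging 1 FPKM or more were fitted together with limma 3.58.1 in R 4.3.3 (the data.table package was 1.17.8), with 3 group means, a variance trend, 6 residual and 3.56 prior degrees of freedom. Two-sided tests were adjusted over all genes by Benjamini-Hochberg for each comparison, with calls under 0.05. The fit was tested on simulated data. Pair ratios used exact permutation over 20 splits. All members and list genes called are named, with the highest and lowest member of each class and further members near the threshold or without group overlap, which were chosen after their values were seen. A gene of the pathway lists is not reported here. The members and lists were chosen with earlier results of these data known. All 48 identifiers matched GENCODE M21, 36 with identical ends. Promoters come from RefSeq on GRCm38.p6.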

Additional observations from a re-analysis of the deposited data

How the results depend on the processing

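Leaving out a library of the group not compared changed the spread and the p-value of a difference, but not the difference. In IPO against sham 0 members were called in every fit run. In IR against sham, 0 to 1 members were called higher and 0 to 3 lower with 1 library left out. The 3 lower were in the fit without IR 3, where 821 of 9649 genes tested were called lower. The members' median moved to -0.31 with the description number as a term, a fit that sets IR against sham 2 alone. In IPO against IR the 2 members called lower became 1 with a pseudocount of 1, 1 with a minimum mean of 5 FPKM (where Psmb9 is not tested), 1 with a replicate block, 0 with the 2 groups alone, and from 0 to 2 with 1 library left out. Quantile normalization added 1 called higher, Psma2 (0.42, adjusted p = 0.0397). The log2 ratio of Psmb9 to Psmb6 in IPO against sham, -0.06, turned to 0.0055 with a pseudocount of 1, to 0.014 without sham 1 and to 0.11 without IPO 2, over a range from -0.22 to 0.11 with 1 library left out. That of Psmb10 to Psmb7 in IPO against IR, -0.03, turned to 0.14 without IR 3, 0.025 without IPO 2 and 0.093 without IPO 3, over a range from -0.22 to 0.14. The cause was not tested, apart from the fewer libraries in the fits without 1. The remaining counts, medians and ratios kept their direction and their side of the threshold, or moved by less than the spread between replicates. Of the calls named in the text, a replicate block also ended those of Psme1, Mafg, Rps27a, Stat2, Tapbp and Colec11 in IPO against IR, of Tap2, Colec11, Lyve1 and Reln in IR against sham, and of Nfyb in both. The 2 groups alone ended those of Psme1, Psmb9, Mafg, Rps27a, Tapbp, Cxcr2 and Sox9 in IPO against IR, of H2-T23, Nfyb, Lyve1, Reln and Stab2 in IR against sham, and of Irf9, Tap2 and Colec11 in both. Quantile normalization ended both calls of H2-T23, and no filter that of Lyve1 in IR against sham. Over all genes, the calls in IR against sham, 372 higher and 737 lower, became 212 and 434 with a replicate block and 118 and 223 with the 2 groups alone. The replicate numbers recur in each group, but same-numbered libraries did not deviate together (9 pairs, r from -0.137 to 0.0653, 0 over 0.1). Only 1 of 9 libraries was closest to its own number. With 3 libraries in each group this check cannot decide whether the numbers pair libraries, and the labels do not say. With an unknown depth, the limits of low genes such as Psmb9 are unknown too.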

Other observations

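Markers of other liver cells were called in some lists. In IR against sham, 2 of 7 sinusoidal endothelial markers were called higher and 1 lower, and 2 of 5 stellate cell markers higher. Over all genes tested, 3.86% were called higher and 7.64% lower. In IPO against IR, 1 endothelial marker was called higher and 1 lower, and 1 stellate cell marker lower. The shares over all genes were then 12% and 10.1%. Kdr, the VEGF receptor of sinusoidal endothelium, rose in IR against sham by 1.42 on the log2 scale and fell in IPO against IR by 1.14 (limma adjusted p of 0.00279 and 0.00334), and both calls held in all 9 fits without 1 library. With the description number as a term, which sets IR against sham 2 alone, the differences of Kdr and Stab2 were 1.15 and 0.56. Those of Lyve1, Colec11 and Reln were -1.57, 0.63 and 0.65. Whether their calls in IR against sham hold apart from that number cannot be told. Stab2, a scavenger receptor of the same cells, rose in IR by 0.74 (adjusted p = 0.0178), a call that ended without sham 1 (0.0690). Lyve1 fell in IR by 1.31 and rose in IPO against IR by 1.34 (adjusted p of 0.0481 and 0.0292). Its calls ended without sham 1, sham 2, IR 1, IR 2 or any IPO library in the first comparison and without IR 1 or any IPO library in the second (up to 0.153 and 0.0951). Of the stellate cell markers, Colec11 and Reln rose in IR by 0.53 and 0.54 (adjusted p of 0.0438 and 0.0349) and Colec11 fell in IPO against IR by 0.45 (0.0471). The calls of Colec11 ended in all 9 fits without 1 library in both comparisons (up to 0.145 and 0.151), and that of Reln in 8, all but the fit without IR 1 (up to 0.121).

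Clec4d, a receptor of neutrophils and macrophages, rose in IPO against IR by 1.61 (adjusted p = 0.0110), a call that held in all 9 fits, and Cxcr2, a neutrophil chemokine receptor, rose by 1.22 (adjusted p = 0.0323), a call that ended without IR 1, IR 2, IPO 2 or IPO 3 (up to 0.108). The size of both rises depends on the pseudocount. Clec4d and Cxcr2 rose by 2.33 and 1.78 with a pseudocount of 0.1, and by 1.20 and 0.90 with 1. Both calls held with either. Of 6 neutrophil markers, 2 were called higher and 0 lower, beside 12% and 10.1% of all genes tested. Alas2, the erythroid enzyme of haem synthesis, and Sox9, a cholangiocyte marker, fell in IPO against IR by 0.70 and 1.87 (adjusted p of 0.0202 and 0.0286), and both calls ended without any of the IPO libraries (up to 0.0738 and 0.0919). Of 5 erythroid markers, 1 was called lower in IPO against IR, and all 5 were below 0. Of 3 tested cholangiocyte markers, Sox9 alone was below 0 in IPO against IR, and 2 were above 0. The part of the cell types above in the proteasome results was not tested.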
